A study of Sus scrofa with 9 samples.

Results

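Fatty acid handling and lipid uptake were followed through 6 transcripts, those of PPARG, ACSL4, CPT1B, MGLL, PRKAA2 and OLR1, in RNA sequencing of pig granulosa cells. These are 6 of the 1081 rows of the deposited table, chosen by gene symbol, and all 6 passed the filter on low values (1 FPKM or more in 3 or more of the 9 libraries), as did 919 rows in all. The cells were primary wild-type granulosa cells from the ovary in 3 groups of 3 libraries: control, sulforaphane, the broccoli isothiocyanate known as an activator of NRF2, and FSH, follicle-stimulating hormone, whose receptor on granulosa cells raises cyclic AMP. Doses, times, the age of the animals and the number of animals behind a library are not given in the sources used here, so p-values measure the spread between these libraries, which may be technical.

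Granulosa cells line the ovarian follicle and take up lipoproteins and fatty acids from blood and follicular fluid, for membranes, for fuel and, as cholesterol, for steroid hormones. A fatty acid that enters a cell is bound to coenzyme A by an acyl-CoA synthetase such as ACSL4, and can then be built into phospholipids and triglycerides or passed into mitochondria for oxidation by a carnitine palmitoyltransferase such as CPT1B. Stored lipid is cleaved again by lipases, the last of which is MGLL, and the balance of storage and oxidation is set in part by the nuclear receptor PPARG and the energy-sensing kinase AMPK, one catalytic subunit of which is PRKAA2.

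The 9 libraries had recovered depths of 16.6 to 22.3 in units of 1e6 fragments, and the table took up 6.72% to 8.38% of them. Rows with a small difference from control were scarce. Taken without sign, the log2 fold changes had a 1st percentile of 0.39 (sulforaphane against control), 0.37 (FSH against control) and 0.0057 (sulforaphane against FSH). A call against control is therefore close to a property of being in the table, and the comparison of the treatments with each other is less bound by it. The treatment labels were checked with NQO1, an NRF2 target, whose control level of 3.73 ± 0.457 FPKM compares with 99.4 ± 22.9 FPKM under sulforaphane, and with CYP11A1, the side-chain cleavage enzyme of steroid synthesis, whose control level of 149 ± 13.4 FPKM compares with 558 ± 43.0 FPKM under FSH (SD, n = 3). Both also differed from control with the other treatment. NQO1 was at 13.4 ± 1.12 FPKM with FSH and CYP11A1 at 103 ± 31.3 FPKM with sulforaphane. Of 16 granulosa markers listed, 6 were rows of the table (INHBA, HSD17B1, AMHR2, GJA1, KITLG and FST), with a summed level of 393 to 399 FPKM in controls, 576 to 716 FPKM with sulforaphane and 779 to 812 FPKM with FSH. Most of that sum was GJA1, at a mean of 323, 583 and 613 FPKM, and the others did not all follow it. Mean levels of AMHR2, the receptor of anti-Müllerian hormone, were 2.57, 0.553 and 1.10 FPKM in control, sulforaphane and FSH. HSD17B1, an enzyme of estradiol synthesis, was at 2.90, 1.42 and 5.42 FPKM, and INHBA, a subunit of inhibins and activins, at 43.1, 27.4 and 123 FPKM. These 3 were lower with sulforaphane than in controls. FST, at 19.8, 34.6 and 50.2 FPKM, and KITLG, at 4.69, 6.30 and 7.11 FPKM, were higher with both treatments, as GJA1 was. Sulforaphane replicate 3 stood apart over the whole table, with a chi-square per gene of 49.6 and 56.9 against replicates 1 and 2. The other pairs within a group had 2.45 to 9.39. Without sulforaphane replicate 3 all 6 genes still passed in each comparison. So did 907 (sulforaphane against control), 919 (FSH against control) and 593 (sulforaphane against FSH) of the 919 tested genes.

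Each of the 6 genes had a level in each treatment that did not overlap with the other groups. With sulforaphane PPARG, PRKAA2, MGLL and ACSL4 were higher than in controls and OLR1 and CPT1B lower. With FSH OLR1 and ACSL4 were higher and PPARG, PRKAA2, MGLL and CPT1B lower. All 6 passed in sulforaphane against control, where 99.6% of tested genes passed, and all 6 in FSH against control, where 97.9% did (edgeR quasi-likelihood test, Benjamini-Hochberg adjusted p under 0.05). Both comparisons use the same 3 control libraries. In sulforaphane against FSH, which does not use them, all 6 passed as well, against 55.7% of tested genes. PPARG, PRKAA2, MGLL and OLR1 had opposite directions against control, so a difference between the treatments followed from those values and is no separate result. Groups did not overlap in FPKM for 96% of tested genes in sulforaphane against control, 98.7% in FSH against control and 59.4% in sulforaphane against FSH.

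**Figure D1:**
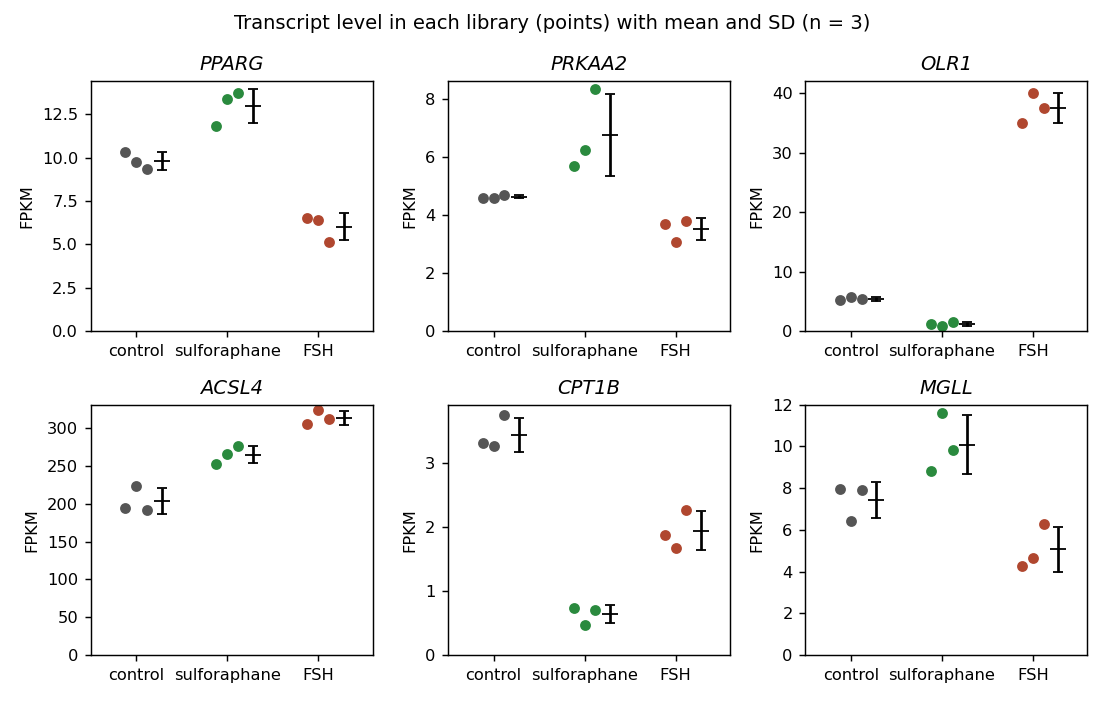
Level of the 6 transcripts in FPKM (y axis, starting at 0) in the 3 control, 3 sulforaphane and 3 FSH libraries (points), with the mean and SD of each group beside them (n = 3). OLR1 stands at 35.0 to 40.0 FPKM with FSH and at most 1.55 FPKM with sulforaphane, and PPARG, PRKAA2 and MGLL are each highest with sulforaphane and lowest with FSH.

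OLR1 encodes the lectin-like receptor for oxidised low-density lipoprotein, a scavenger receptor best known from endothelial cells and macrophages. Its FPKM were 5.16, 5.74 and 5.4 in controls, 1.25, 0.85 and 1.55 with sulforaphane, and 35.0, 40.0 and 37.4 with FSH. The 3 ranges lay far apart, with FSH highest and sulforaphane lowest. OLR1 rose 6.89-fold with FSH (log2 fold change 2.78, 95% interval 2.50 to 3.07, adjusted p = 4.16e-09) and was 4.47-fold lower with sulforaphane (-2.16, interval -2.53 to -1.78, adjusted p = 3.82e-07). Between the treatments the difference was 30.8-fold (log2 fold change of sulforaphane against FSH -4.94, interval -5.29 to -4.59, adjusted p = 1.30e-10), the fifth lowest value of the 919 genes. The sulforaphane libraries held 35, 25 and 43 reads of OLR1 and those with FSH 966 to 1294, so the low level rests on few reads. The gene lies on chromosome 5 from 61799356 to 61809691 in Sscrofa11.1.

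In bulk libraries fewer cells of a type and less RNA per cell cannot be told apart, so markers of cells that are known for OLR1 were set beside it. Of 10 endothelial markers listed, 2 were rows of the table, KDR and TIE1, and their summed level was 1.25 to 1.27 FPKM in controls, 1.24 to 2.04 FPKM with sulforaphane and 2.05 to 2.2 FPKM with FSH. TIE1, an endothelial receptor kinase, moved as OLR1 did, at 1.17 ± 0.0208, 0.427 ± 0.0982 and 1.80 ± 0.0400 FPKM (SD, n = 3), whereas KDR, the VEGF receptor, stood at 0.0900 ± 0.0100, 1.17 ± 0.434 and 0.307 ± 0.0551 FPKM in control, sulforaphane and FSH. Both lay below OLR1 in controls and with FSH, and 0 marker rows were at 0 in any library. Of 11 leukocyte and macrophage markers 0 were rows of the table, and they are not analysed here. Of 9 theca markers 2 were rows, CYP11A1 and LHCGR, the LH receptor, both also known from granulosa cells. Their summed level had the order of OLR1, at 139 to 166 FPKM in controls, 74.9 to 138 FPKM with sulforaphane and 530 to 611 FPKM with FSH. The part of other cell types in the OLR1 difference was not tested.

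ACSL4, the acyl-CoA synthetase that prefers arachidonic acid and other polyunsaturated fatty acids, was the most abundant of the 6 transcripts and rank 23 of the 1081 rows by mean FPKM in controls. Its FPKM were 195, 223 and 192 in controls, 253, 267 and 276 with sulforaphane, and 305, 324 and 312 with FSH. The groups stood in the order control, sulforaphane, FSH without overlap. ACSL4 rose 1.3-fold with sulforaphane (log2 fold change 0.38, 95% interval 0.22 to 0.54, adjusted p = 3.78e-04) and 1.55-fold with FSH (0.63, interval 0.47 to 0.79, adjusted p = 1.11e-05). The rise with sulforaphane was among the smallest changes of these rows, rank 915 of 919 by size. Smaller differences from control were scarce in the table. The log2 fold change of ACSL4 in sulforaphane against FSH was -0.25 (interval -0.41 to -0.09, adjusted p = 0.0106), and this difference turned positive and missed the threshold with TMM (0.07) and median-ratio scaling (0.13). It also missed the threshold without FSH replicate 2 (-0.22, adjusted p = 0.054). ACSL4 had 17731 to 34693 reads per library and lies on chromosome X from 89760863 to 89838103.

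CPT1B, the muscle-type carnitine palmitoyltransferase of the outer mitochondrial membrane, makes the acylcarnitines that enter mitochondria. Its FPKM were 3.31, 3.27 and 3.75 in controls, 0.74, 0.47 and 0.71 with sulforaphane, and 1.88, 1.67 and 2.27 with FSH. Controls were highest, FSH lay between, and sulforaphane was lowest in each library. CPT1B fell by 2.37 on the log2 scale with sulforaphane (5.19-fold, 95% interval of the log2 fold change -2.78 to -1.97, adjusted p = 3.41e-07), rank 17 of 919 among the falls, and by 0.81 with FSH (1.76-fold, interval -1.16 to -0.47, adjusted p = 5.68e-04). With sulforaphane it was 2.95-fold lower than with FSH (interval of the log2 fold change -1.98 to -1.14, adjusted p = 1.30e-05). Reads were few, 25 to 38 with sulforaphane and 75 to 185 in the other groups. The fall with sulforaphane was smaller on scales with a larger pseudocount (-1.44 in log2(FPKM + 1) and -0.58 in log2(FPKM + 5)), by the construction of those scales for a low gene. The gene lies on chromosome 5 from 155552 to 163536.

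Muscle markers were lower in the same treated libraries as CPT1B. Of 8 smooth muscle markers listed, 7 were rows of the table (CALD1, MYH11, LMOD1, DES, CNN1, SMTN and ACTA2), and their summed level was 7693 to 7979 FPKM in controls, 2554 to 2753 FPKM with sulforaphane and 3349 to 3414 FPKM with FSH, most of it ACTA2. Unlike CPT1B, CNN1 rose 1.53-fold with FSH (log2 fold change 0.61, adjusted p = 1.52e-04). Of 10 striated muscle markers 0 were rows of the table. Of 8 surface epithelium markers 3 were rows, the keratins KRT7, KRT8 and KRT18, and their summed level, most of it KRT8, also had the order of CPT1B, at 154 to 157 FPKM in controls, 39.4 to 46.5 FPKM with sulforaphane and 89.4 to 95.3 FPKM with FSH. The part of contractile or epithelial cells in the CPT1B difference was not tested.

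MGLL, monoglyceride lipase, releases the last fatty acid from the glycerol backbone and also breaks down the endocannabinoid 2-arachidonoylglycerol. Its FPKM were 7.97, 6.43 and 7.91 in controls, 8.80, 11.6 and 9.85 with sulforaphane, and 4.25, 4.67 and 6.29 with FSH. The ranges did not overlap, but control replicate 2 at 6.43 FPKM and FSH replicate 3 at 6.29 FPKM lay next to each other. MGLL rose 1.33-fold with sulforaphane (log2 fold change 0.42, 95% interval 0.13 to 0.70, adjusted p = 0.00887) and fell by 0.64 on the log2 scale with FSH (1.56-fold, interval -0.94 to -0.34, adjusted p = 9.38e-04). The rise with sulforaphane was a small change among these rows, rank 872 of 919 by size. MGLL was 2.08-fold higher with sulforaphane than with FSH (log2 fold change 1.06, interval 0.76 to 1.35, adjusted p = 1.64e-05). Its estimated counts, 170 to 474 per library, were not all whole, and no source used here says how reads were assigned. The gene lies on chromosome 13 from 72480395 to 72568964.

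PPARG, the nuclear receptor for fatty acids that drives fat storage in adipocytes and is expressed in granulosa cells, had FPKM of 10.3, 9.78 and 9.34 in controls, 11.9, 13.4 and 13.7 with sulforaphane, and 6.51, 6.43 and 5.14 with FSH. All sulforaphane libraries were above all controls and all FSH libraries below them. PPARG rose 1.31-fold with sulforaphane (log2 fold change 0.39, 95% interval 0.14 to 0.64, adjusted p = 0.00565), a small change among these rows, rank 901 of 919 by size, and fell by 0.71 on the log2 scale with FSH (1.63-fold, interval -0.97 to -0.45, adjusted p = 1.95e-04). The difference between the treatments was 2.15-fold (log2 fold change 1.10, interval 0.84 to 1.36, adjusted p = 3.46e-06). Of 8 adipocyte markers, such as ADIPOQ and FABP4, 0 were rows of the table. PPARG lies on chromosome 13 from 68301566 to 68433951 and had 192 to 455 reads per library.

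PRKAA2, the alpha-2 catalytic subunit of AMPK, which phosphorylates acetyl-CoA carboxylase and so relieves the block on carnitine palmitoyltransferases, had FPKM of 4.60, 4.61 and 4.70 in controls, 5.69, 6.25 and 8.37 with sulforaphane, and 3.69, 3.09 and 3.79 with FSH. Controls were tight (a coefficient of variation of 1.19%), and sulforaphane replicate 3, the library that stood apart over the whole table, was above the others of its group (a coefficient of variation of 20.9%). PRKAA2 rose 1.59-fold with sulforaphane (log2 fold change 0.67, 95% interval 0.34 to 1.0, adjusted p = 0.00109), and 0.46 on that scale without sulforaphane replicate 3. Its log2 fold change with FSH was -0.38 (interval -0.72 to -0.05, adjusted p = 0.0299), a small change among these rows, rank 892 of 919 by size. This call had the highest adjusted p of the 12 calls against control. That call was lost with TMM scaling (-0.16, adjusted p = 0.237) and when control replicate 1 (-0.41, adjusted p = 0.0507), control replicate 2 (-0.34, adjusted p = 0.0906), control replicate 3 (-0.41, adjusted p = 0.050), FSH replicate 1 (-0.36, adjusted p = 0.0781) or FSH replicate 2 (-0.36, adjusted p = 0.080) was left out. Against FSH the level with sulforaphane was 2.08-fold higher (log2 fold change 1.06, interval 0.72 to 1.39, adjusted p = 4.65e-05). Its estimated counts, 191 to 570 per library, were not all whole either, and the gene lies on chromosome 6 from 155683392 to 155754283.

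In the direct comparison PPARG, MGLL and PRKAA2 were therefore close to each other, with log2 fold changes of 1.10, 1.06 and 1.06 for sulforaphane against FSH. In that comparison 12.9% of tested genes were higher with sulforaphane and 42.8% lower, and these 3 stood at ranks 41, 43 and 44 of 919 from the top. OLR1, CPT1B and ACSL4 were lower with sulforaphane than with FSH, with log2 fold changes of -4.94, -1.56 and -0.25. The median of the 6 was 0.40, beside -0.18 over all 919 genes. Against control, 4 of the 6 were higher with sulforaphane (34.3% of all genes were) and 2 lower (65.3%), with a median log2 fold change of 0.39 beside -0.56 over all genes. With FSH 2 were higher (55.3% of all genes) and 4 lower (42.7%), with a median of -0.51 beside 0.41.

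**Figure D2:**
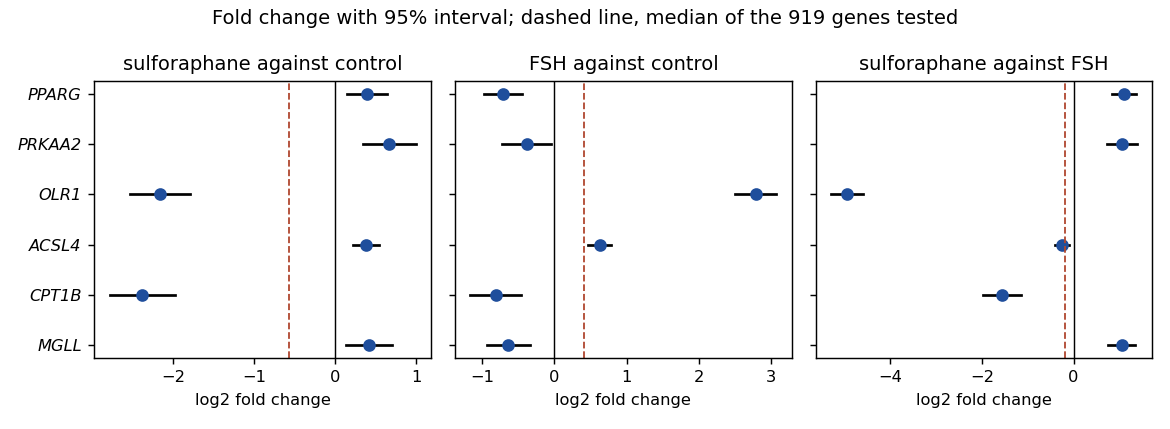
Log2 fold change (x axis) of the 6 genes with its 95% interval in each comparison, with a dashed line at the median of the 919 genes tested. The interval of each gene lies on one side of 0 in each panel, and OLR1 is at 2.78 with FSH and -2.16 with sulforaphane.

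Scaling between libraries moved all log2 fold changes together. TMM and median-ratio factors were taken from the 919 tested rows alone, and the table held 6.72% to 8.38% of the depth. Both presume that most of the rows used are unchanged. By depth 99.6% of them passed in sulforaphane against control and 97.9% in FSH against control. Which scaling is right was not tested. The median over all genes in sulforaphane against control was -0.56 by library depth, -0.20 by median ratio and -0.02 by TMM. In FSH against control it was 0.41, 0.39 and 0.63, and in sulforaphane against FSH -0.18, 0.19 and 0.13. The share of higher calls changed with it: 315 genes were higher and 600 lower with sulforaphane by depth, 317 and 369 by median ratio, and 317 and 266 by TMM. In sulforaphane against FSH 119 were higher and 393 lower by depth, 388 and 315 by median ratio, and 330 and 325 by TMM. PPARG, PRKAA2, MGLL and ACSL4 were higher with sulforaphane than in controls under each of the 3, with log2 fold changes of 0.93, 1.20, 0.95 and 0.92 by TMM. OLR1 and CPT1B were lower under each, at -1.63 and -1.84 by TMM. With FSH the directions of all 6 were kept, OLR1 at 3.01 and PPARG at -0.48 by TMM.

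**Figure D3:**
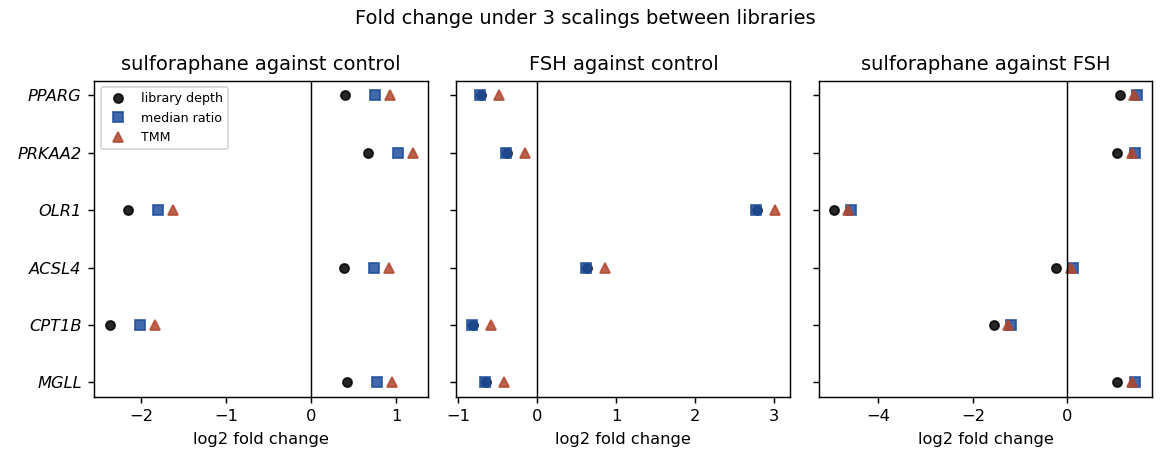
Log2 fold change (x axis) of the 6 genes under library depth, median-ratio and TMM scaling, 1 panel per comparison. Points of a gene shift together, and ACSL4 in sulforaphane against FSH is the point that crosses 0, from -0.25 to 0.13 and 0.07.

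The wider pathway was represented by 206 listed genes of uptake, activation, carnitine shuttle, oxidation, ketone bodies, lipolysis, droplets, synthesis, transcriptional control, AMPK and PPAR targets. Beside the 6, 12 of the other 200 were rows of the table and 9 were tested; the rest are not analysed here. Of the 9, 4 rose with sulforaphane (34.3% of all genes did) and 5 fell (65.3%). The median log2 fold change of the 9 was -0.44, beside -0.56 for all genes, and 0.10 by TMM and -0.08 by median ratio. With FSH 5 rose (55.3% of all genes) and 4 fell (42.7%), with a median of 0.43 beside 0.41. PPARGC1B is among the falls with both treatments. It passed the filter only through its control libraries, so its falls are no separate result. In sulforaphane against FSH 4 were higher (12.9% of all genes were), 3 lower (42.8%) and 2, PHYH and HACD2, did not pass. By TMM 6 were higher and 3 lower in that comparison, beside 330 and 325 of all 919 genes. By median ratio 6 were higher and 2 lower, beside 388 and 315. With TMM scaling 2 of the 5 falls with sulforaphane passed, and with median-ratio scaling 2, beside 266 and 369 of all 919 genes.

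Among lipases and uptake genes, LIPG, endothelial lipase, which cleaves phospholipids of lipoproteins, was at 26.0 ± 1.56 FPKM in controls, 71.5 ± 14.1 FPKM with sulforaphane and 17.9 ± 1.71 FPKM with FSH (SD, n = 3). It rose 2.78-fold with sulforaphane (adjusted p = 7.52e-07) and fell by 0.50 on the log2 scale with FSH (adjusted p = 0.00295), a fall that missed the threshold with TMM scaling (-0.27). It thus had the directions of MGLL. ABHD6, another hydrolase of 2-arachidonoylglycerol, rose with both treatments, 2.0-fold with sulforaphane (adjusted p = 8.58e-07) and 1.34-fold with FSH (adjusted p = 8.93e-04).

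Of oxidation and elongation genes, PHYH, the peroxisomal hydroxylase of branched-chain fatty acids, fell by 0.64 on the log2 scale with sulforaphane (adjusted p = 0.00126) and by 0.87 with FSH (adjusted p = 2.10e-04). HACD2, a dehydratase of very long chain fatty acid elongation, fell by 0.44 (adjusted p = 4.27e-04) and 0.57 (adjusted p = 9.01e-05). The sulforaphane values of both missed the threshold by TMM and median ratio, and that of HACD2 turned positive by TMM (0.10). PPARGC1B, a coactivator of mitochondrial genes, passed the filter only through its control libraries, at 1.02 to 1.07 FPKM, so it had to be lower elsewhere. The direction of its log2 fold changes against control, -1.32 with sulforaphane and -0.64 with FSH, was therefore set by the filter. Like CPT1B it was lower with sulforaphane than with FSH (log2 fold change -0.68, adjusted p = 5.86e-04). By median ratio that difference was -0.31 and missed the threshold.

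The genes listed as PPAR targets divided into 2 patterns. UCP2, a mitochondrial carrier, and PCK2, the mitochondrial phosphoenolpyruvate carboxykinase, rose with both treatments, to 8.53 ± 0.501 and 26.2 ± 1.26 FPKM with sulforaphane from 4.28 ± 0.552 and 13.4 ± 0.273 FPKM in controls, and 1.46-fold and 1.39-fold with FSH. TXNIP, an arrestin that restrains glucose uptake, and GK, glycerol kinase, fell with sulforaphane (log2 fold changes -0.77 and -0.82) and rose with FSH (0.57 and 0.62), the directions of OLR1. The fall of GK missed the threshold by TMM (-0.28) and median ratio (-0.46), and its rise without control replicate 1 (0.45, adjusted p = 0.0501). ACSBG1, PPARGC1A and CEBPA did not pass the filter and had mean FPKM of 0.957, 0.600 and 0.420 in controls, 0.477, 0.270 and 0.887 with sulforaphane, and 0.567, 0.977 and 0.997 with FSH.

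**Figure D4:**
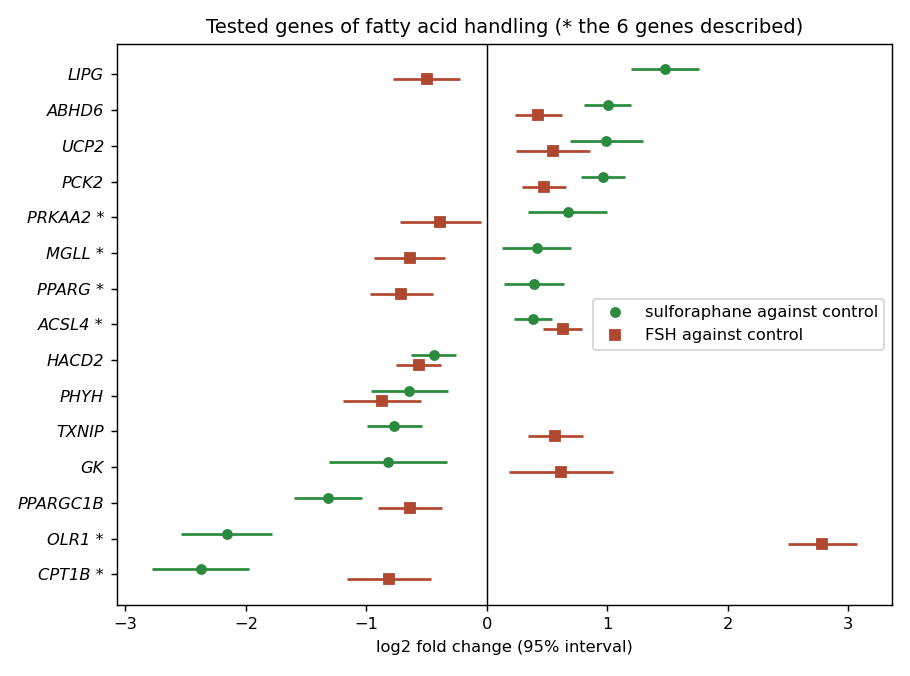
Log2 fold change (x axis) with 95% interval of the 15 tested genes of the fatty acid handling list, sulforaphane against control (circles) and FSH against control (squares), ordered by the sulforaphane value. LIPG is at 1.48 with sulforaphane and CPT1B at -2.37, and OLR1 has the largest value with FSH, 2.78.

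The authors' deposited pathway annotation placed 4 of the 6 (OLR1, ACSL4, CPT1B and PPARG) in PPAR signaling, a term carried by 8 of 440 annotated rows (1.82%). The 6 were chosen as fatty acid handling genes, so their place in such terms is no separate result. The other 4 rows of the term were GK, PCK2, ACSBG1 and CYP27A1, the mitochondrial sterol 27-hydroxylase. CYP27A1 had FPKM of 14.6, 14.9 and 12.9 in controls, 6.22, 4.98 and 7.53 with sulforaphane and 23.0, 26.1 and 22.2 with FSH. It was again lower with sulforaphane (log2 fold change -1.18, adjusted p = 7.52e-06) and higher with FSH (0.75, adjusted p = 2.18e-04). The AMPK signaling term held PRKAA2, PPARG and CPT1B among 10 rows, and thermogenesis held all but OLR1 among 11 rows. The 4 genes under PPAR signaling included both directions in each comparison.

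Likeness of pattern was measured as the root mean square difference, over the 9 libraries, of log2(FPKM + 1) minus its control mean; it is a description and depends on level. Nearest to PPARG was ATP13A3, a polyamine-transporting ATPase, at a difference of 0.11, at 20.8 ± 0.645 FPKM (control), 29.1 ± 2.51 FPKM (sulforaphane) and 13.5 ± 0.414 FPKM (FSH). ZBED2 (0.14) and PMP22, a membrane protein of peripheral myelin (0.15), followed, and MGLL was rank 15 for PPARG at 0.23. Nearest to MGLL were NAV3 (0.13), the transcription factor KLF5 (0.15) and the lymphatic growth factor VEGFC (0.15), with PRKAA2 at rank 12 (0.21).

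For PRKAA2 the nearest were NMT2, an N-myristoyltransferase (0.12), the platelet-derived growth factor receptor PDGFRB (0.13) and the phosphodiesterase PDE8B (0.13). PDGFRB is also on the list of stromal fibroblast markers, of which 3 of 8 were rows of the table (THY1, COL1A1 and PDGFRB). Their summed level went the other way with sulforaphane. It was 85.4 to 91.6 FPKM in controls, 44.3 to 52.0 FPKM with sulforaphane and 56.9 to 60.6 FPKM with FSH. Most of it was COL1A1, at a mean of 71.4, 31.7 and 47.0 FPKM. THY1, at 6.71, 3.88 and 4.78 FPKM, had the same order. PDGFRB, at 9.47, 13.1 and 6.55 FPKM, was higher with sulforaphane than in controls. The part of stromal cells in the differences of PPARG, MGLL and PRKAA2 was not tested.

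OLR1 had no close neighbour: CITED1, a transcriptional coactivator, was nearest at 0.62, at 3.82 ± 0.692 FPKM (control), 2.04 ± 0.442 FPKM (sulforaphane) and 41.7 ± 3.32 FPKM (FSH). CYP11A1 (0.70) and the nuclear receptor NR4A1 (0.72) came next. For ACSL4 the nearest were MLLT11 (0.06), PTCD2 (0.08) and the homeobox gene PRRX1 (0.10). PRRX1 was low, at 0.843, 1.24 and 2.02 FPKM in control, sulforaphane and FSH. Its log2 fold changes against control were 0.55 and 1.26, beside 0.38 and 0.63 for ACSL4. For CPT1B the nearest were the potassium channel KCNA5 (0.12), the actin bundler FSCN1 (0.13) and SCRN1 (0.15). KCNA5 was low, at 1.68, 0.02 and 0.793 FPKM in control, sulforaphane and FSH, passed the filter only through its controls, and so had to be lower elsewhere. Its log2 fold changes were -6.30 and -1.07. FSCN1 went from 551 ± 14.9 FPKM in controls to 225 ± 16.8 FPKM with sulforaphane and 357 ± 2.21 FPKM with FSH, with log2 fold changes of -1.29 and -0.63 beside -2.37 and -0.81 for CPT1B. No other gene of the 6 was near OLR1, ACSL4 or CPT1B, the closest being at rank 273, 341 and 569 of the tested genes.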

How the data were processed

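RNA was sequenced from 9 libraries of primary porcine granulosa cells, with oligo(dT) enrichment per the labels' protocols. Per the submitters' processing notes, the build was Sscrofa11.1 and the tools were StringTie 1.3.1, HISAT2, Bowtie2 2.2.8, fastp, DESeq2 and edgeR, with no role stated. The authors deposited FPKM and estimated counts per gene, per the file headers; the choice of rows is not explained by labels or headers. An NCBI gene identifier stood in 1053 of the 1081 rows and was found in the reference gene table of that build, the 6 genes among them. In 143 rows a count was not whole (tolerance 1e-06). Columns of other series numbered 0.

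Counts were rounded. Depth, used as library size, was derived by dividing count by FPKM (354 genes for relative depth; 10 genes whose ratio to the gene span reached a common maximum within 0.1% for absolute depth, mean 18.7 in units of 1e6 fragments). All 9 libraries entered 1 fit in edgeR 4.0.16 (R 4.3.3), quasi-likelihood test, Benjamini-Hochberg over 919 genes, threshold 0.05; the common dispersion was 0.0118. The test was tested on simulated data in which most genes were unchanged, unlike these rows, of which nearly all passed against control. Standard errors behind the 95% intervals came from dividing each log2 fold change by the root of its F value. An exact two-sided permutation test of 3 libraries against 3 cannot go below p = 0.1. Counting error is covered by no separate interval.

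The 6 genes, the gene lists and the markers were chosen with earlier results of these data known. Named genes were the 6, each row of the fatty acid handling list (1 gene of the list as first drawn up was removed from it and is not reported here), the 3 genes nearest in pattern to each of the 6, NQO1 and CYP11A1; CYP27A1 and the marker genes given singly were named after their values were seen. Alternatives were TMM and median-ratio scaling, DESeq2 1.42.0, limma 3.58.1 on log2(FPKM + 1), with 0.1 or 5 in place of 1, a mean FPKM of 5 or more, no filter, only the groups compared, a replicate block and leaving out each library. Counts scaled by the transcript length that count and FPKM imply in each library were added after seeing the data.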

Additional observations from a re-analysis of the deposited data

How the results depend on the processing

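Of 354 values of the 6 genes under the alternatives, 345 kept their direction and their side of the threshold, 7 missed the threshold and 2 changed sign. The 2 were ACSL4 in sulforaphane against FSH, at -0.25 with depth and at 0.066 with TMM and 0.13 with median-ratio factors; both factors shift the whole comparison upwards. The 7 were PRKAA2 in FSH against control with TMM and without 5 single libraries, and ACSL4 in sulforaphane against FSH without FSH replicate 2. Leaving out each library in turn gave 6 of 6 genes in sulforaphane against control. In FSH against control and in sulforaphane against FSH it gave 5 to 6. For the 15 tested list genes the comparisons, in that order, gave 15, 13 to 15 and 11 to 13. Over all 919 tested genes they gave 892 to 915, 857 to 919 and 470 to 593. A mean of at least 5 FPKM left CPT1B and PRKAA2 untested. Depth limits OLR1 and CPT1B with sulforaphane, at 25 to 43 reads.

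Same-numbered libraries did not deviate together (correlations of -0.181 to 0.211, the same number correlating best in 6 of 18 comparisons), so the numbers are not taken as pairs. With the replicate block all 6 genes passed in each comparison, as did 15, 15 and 13 of the list genes. Of the 919 tested genes 915 passed in sulforaphane against control, 903 in FSH against control and 505 in sulforaphane against FSH.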

Other observations

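The ratio of count to FPKM, divided by depth, gives the transcript length that the authors' quantification assumed in each library. It was steady for OLR1 (1.55 to 1.56 kb), ACSL4 (4.97 to 4.99 kb) and PPARG (1.79 to 1.82 kb), and varied more for CPT1B (2.65 to 2.85 kb). For MGLL it ran from 1.98 to 2.46 kb and for PRKAA2 from 3.16 to 3.81 kb, the 2 genes of the 6 whose counts were not whole.

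For PRKAA2 the implied length was 3.25 to 3.61 kb in controls, 3.16 to 3.73 kb with FSH and 3.61 to 3.81 kb with sulforaphane. The rise with sulforaphane was 0.67 on the log2 scale from counts and 0.55 after division by these lengths. For MGLL the lengths overlapped between groups, at 2.2 to 2.42 kb in controls, 2.16 to 2.46 kb with sulforaphane and 1.98 to 2.45 kb with FSH, and the log2 fold change with FSH was -0.64 from counts and -0.55 after division. Which transcripts were present was not analysed here.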
